A study of Mus musculus with 90 samples.

Results

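The genes Efnb2, Ephb4, Dll4, Hey1, Hey2, Nr2f2, Aplnr, Nrp1 and Nrp2 are used to tell arteries from veins, and their levels are described here in 15 mouse tissues. They were chosen by Entrez Gene identifier, not by their values, and all 9 were found among the 20414 genes of the deposited expression table. The study sequenced RNA from aorta, vein, brown adipose tissue (BAT), white adipose tissue (WAT), heart, skeletal muscle, kidney, liver, spleen, stomach, duodenum, cerebrum, hypothalamus, ovary and uterus, with 3 libraries in estrus and 3 in diestrus for each tissue, 90 in all. The donors were female C57BL/6 mice of 10 weeks according to the labels, which name no altered gene and no drug in any group. The study read the phase of the estrous cycle from vaginal secretions stained with methylene blue. Serum estrogen and progesterone were measured as an aid to this. Each library holds a whole piece of tissue, and the labels do not say which vein was taken.

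The endothelial cells that line arteries and veins take on separate identities early in the embryo. On the arterial side, Notch signalling, started by ligands such as Dll4 and read out through Hey1 and Hey2, goes together with the ligand ephrin-B2 (Efnb2) and with the co-receptor Nrp1. On the venous side, the orphan nuclear receptor COUP-TFII (Nr2f2) goes together with the ephrin-B2 receptor Ephb4, the apelin receptor Aplnr and the co-receptor Nrp2, but none of these genes belongs to endothelium alone.

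Values are FPKM, fragments scaled to transcript length and to library size, so levels can be compared between genes. Fold changes and tests use log2(FPKM + 1), a scale on which changes of weakly expressed genes look smaller than they are, and limma across all genes that averaged 1 FPKM or more, with Benjamini-Hochberg adjustment. A gene was called between tissues at an adjusted p of at most 0.05. In tissue pieces, fewer cells of a type and less RNA per cell cannot be told apart.

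The depth was about 8900000 to 17300000 reads in 89 libraries, as approximated from the steps between FPKM values. BAT estrus replicate 3 came to about 75000 reads and lists 12048 genes at 0, against 4545 to 4820 in the other 5 BAT libraries, so its values say little. Aorta estrus replicate 1 also stood apart. Its summed level of 8 smooth muscle markers, such as Acta2 and Myh11, was 16482 FPKM, against 1838 to 2696 in the other 5 aorta libraries and 1576 to 4789 in the vein. Vein estrus replicate 3 held B and T cell markers, at summed levels of 181 and 105 FPKM, where the other 5 vein libraries did not exceed 6.72 and 10.96. Aorta diestrus replicate 3 held 43.5 and 36.7 FPKM of these markers, where the other aorta libraries did not exceed 18.4 and 6.29.

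The labelled tissues also carried neighbours of the vessels. In aorta estrus replicate 1, the 8 cardiac muscle markers summed to 451 FPKM and the 5 brown adipocyte markers to 413 FPKM. The cardiac muscle markers summed to 3248 to 6580 FPKM in the 5 other aorta libraries and to 33.2 to 117 FPKM in the vein. The brown adipocyte markers summed to 3347 to 6059 FPKM in those aorta libraries and to 546 to 1590 FPKM in the vein. The 6 white adipocyte markers summed to 2453 FPKM in aorta estrus replicate 1, 11603 to 14464 FPKM in the other aorta libraries and 7604 to 15058 FPKM in the vein. Aorta estrus replicate 1 thus held the least of each of these marker sets among the aorta libraries, and the most smooth muscle markers. Leaving it out keeps the 5 aorta libraries that held more heart and fat markers. Markers of peripheral neurons ran the other way, at 1202 to 2600 FPKM in the vein and 7.98 to 27.7 FPKM in the aorta, and include Th, the enzyme that starts catecholamine synthesis. The 6 Schwann cell markers summed to 294 to 778 FPKM in the vein and 16.6 to 377 FPKM in the aorta. The 13 endothelial markers, such as Pecam1, Cdh5 and Kdr, were present in every vessel library, at summed levels of 435 to 664 FPKM in the aorta and 548 to 1006 FPKM in the vein.

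**Figure D1:**
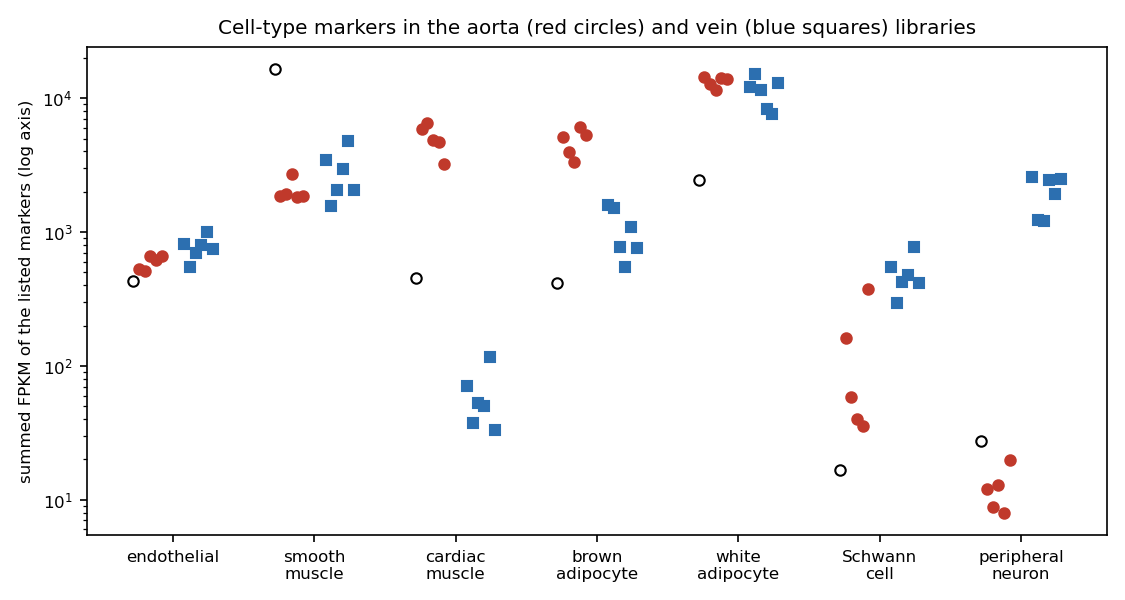
Summed FPKM of the markers of 7 cell types (log axis) in the 6 aorta libraries (red circles) and 6 vein libraries (blue squares), with aorta estrus replicate 1 as an open circle. Cardiac muscle markers reach 451 FPKM in that library, 3248 to 6580 FPKM in the 5 other aorta libraries and 33.2 to 117 FPKM in the vein. Neuronal markers are higher in every vein library than in every aorta library.

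The stretches before the transcription start of 3 of the genes are shown first, because these are the members that did not overlap between the vessels once aorta estrus replicate 1 was left out. The sequences come from RefSeq on GRCm38.p6, whose promoter table holds 7 of the 9 genes (all but Hey1 and Aplnr), and cover the 250 bases that end at the base before the annotated start. The window of Hey2, a Notch target and transcriptional repressor, lies on the minus strand at chr10:30842784-30843033. That of Nr2f2 lies on the minus strand at chr7:70366747-70366996, and that of Nrp1 on the plus strand at chr8:128358823-128359072. Capitals mark matches, on either strand, to GTGGGAA (bound by RBPJ, the DNA-binding partner of Notch), CACGTG (the E-box read by Hey proteins among others), AGGTCA (a core motif of nuclear receptors) or CCGGAA (read by ETS factors), none of which overlapped another.
Hey2: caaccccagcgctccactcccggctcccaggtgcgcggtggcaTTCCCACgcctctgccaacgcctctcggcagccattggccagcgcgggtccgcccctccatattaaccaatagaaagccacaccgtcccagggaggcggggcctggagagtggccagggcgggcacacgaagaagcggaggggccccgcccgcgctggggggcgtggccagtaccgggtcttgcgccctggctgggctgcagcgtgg
Nr2f2: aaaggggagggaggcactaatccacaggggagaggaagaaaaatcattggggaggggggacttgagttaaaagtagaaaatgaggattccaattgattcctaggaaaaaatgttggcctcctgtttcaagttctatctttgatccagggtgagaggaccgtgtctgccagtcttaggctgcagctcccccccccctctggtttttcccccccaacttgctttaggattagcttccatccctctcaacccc
Nrp1: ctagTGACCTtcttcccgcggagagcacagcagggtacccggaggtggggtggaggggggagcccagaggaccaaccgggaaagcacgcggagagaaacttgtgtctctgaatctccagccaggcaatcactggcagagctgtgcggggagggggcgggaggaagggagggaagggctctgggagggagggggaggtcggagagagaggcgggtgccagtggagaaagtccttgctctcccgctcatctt
Hey2 held a match to GTGGGAA in the antisense direction, 201 to 207 bases upstream of the start, and 5.42% of the 32851 promoters of the table held one. Nrp1 held a match to AGGTCA, also antisense, 241 to 246 bases upstream, and 14% of promoters held one. None of the 4 motifs was found in the windows of Nr2f2, Efnb2, Ephb4, Dll4 and Nrp2, which says only that these letters are not in those bases. CACGTG was present in 6.02% and CCGGAA in 12% of all promoters. The Nr2f2 window had a GC content of 50% and 1 CpG, while the other 6 had 64% to 72.4% and 11 to 32 CpGs, against medians of 52.4% and 6 over the table.

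The first question was how the aorta differs from the vein. With all 12 libraries, a single member was called, the venous regulator Nr2f2, which was lower in the aorta. Among all 13225 genes tested, 26.8% were called, 21.1% as lower and 5.66% as higher in the aorta, and the median log2 difference was -0.11. The median of the 9 members was -0.31. With aorta estrus replicate 1 left out, 4 members were called, Nr2f2, Hey2 and Efnb2 as lower and Nrp1 as higher in the aorta, where 51.6% of 13206 genes were called, 35.6% as lower and 16% as higher. Leaving out vein estrus replicate 3 instead left 1 call.

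Nr2f2, a transcription factor needed for vein identity, was at 31.49, 17.05 and 16.87 FPKM in aorta estrus and at 17.44, 17.62 and 21.18 FPKM in aorta diestrus. In the vein it was at 47.95, 30.97 and 46.71 FPKM in estrus and at 45.95, 69.23 and 42.75 FPKM in diestrus. Only aorta estrus replicate 1 reached the range of the vein. The difference was -1.18 on the log2 scale (SE 0.20, limma adjusted p = 0.000746, 6 libraries against 6), and -1.33 (SE 0.15, limma adjusted p = 1.97e-05) without that library. In the estrus libraries alone, it was -0.94 with an adjusted p of 0.173 by limma. Its paralogue Nr2f1 was also called lower in the aorta, by -1.0 (SE 0.17, limma adjusted p = 0.000848), and the more distant Nr2f6 higher, by 0.48 (SE 0.12, limma adjusted p = 0.00889).

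Hey2, an arterial marker in the embryo, was at 36.11 FPKM in aorta estrus replicate 1 and at 4.37 to 8.62 FPKM in the other 5 aorta libraries. The 6 vein libraries lay between 10.84 and 25.93 FPKM. Every aorta library but replicate 1 of estrus was therefore below every vein library. With all libraries the difference was -0.91 (SE 0.43, limma adjusted p = 0.145), and without that library -1.35 (SE 0.19, limma adjusted p = 0.000134). The smooth muscle markers were highest in the same library that held the most Hey2, and their part in the result was not tested. Hey1, its relative among the members, had medians of 5.29 FPKM in the aorta and 7.38 FPKM in the vein, with a difference of -0.45 (SE 0.17, limma adjusted p = 0.0719) that was called only when aorta estrus replicate 3, the aorta library with the most Hey1, was left out (-0.59, limma adjusted p = 0.00592).

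Dll4, the Notch ligand of arterial and sprouting endothelium, had close levels in the vessels. It ranged from 3.01 to 9.90 FPKM in the aorta and from 5.66 to 10.35 FPKM in the vein, with 3.01 FPKM in aorta estrus replicate 1. The difference was -0.07 (SE 0.21, limma adjusted p = 0.850) with that library and 0.12 (SE 0.13, limma adjusted p = 0.493) without it.

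Efnb2, the ephrin-B2 ligand that marks arterial endothelium and is also made by smooth muscle, was at 16.24 FPKM in aorta estrus replicate 1 and 8.33 to 11.07 FPKM in the others. In the vein it was at 8.85 to 16.95 FPKM, so the vessels overlapped. The difference was -0.18 (SE 0.18, limma adjusted p = 0.499), and -0.33 (SE 0.12, limma adjusted p = 0.0360) without that library. Ephb4, its receptor on venous endothelium, was the more abundant transcript in each of the 12 vessel libraries, at 18.85 to 24.86 FPKM in the aorta and at 18.72 to 35.55 FPKM in the vein. The difference in Ephb4 was -0.30 (SE 0.12, limma adjusted p = 0.0963), and it was called when vein estrus replicate 2, the lowest vein library, was left out (-0.37, limma adjusted p = 0.0267).

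Nrp1, the co-receptor for VEGF and class 3 semaphorins, was the member that was higher in the aorta. It was at 26.40, 49.81 and 41.78 FPKM in aorta estrus and at 49.02, 55.81 and 53.68 FPKM in aorta diestrus. The vein had 37.12, 33.68 and 27.22 FPKM in estrus and 35.72, 38.88 and 36.84 FPKM in diestrus. Aorta estrus replicate 1 was below all vein libraries, and the other 5 aorta libraries were above all of them. The difference was 0.36 (SE 0.14, limma adjusted p = 0.0900) with all libraries and 0.49 (SE 0.09, limma adjusted p = 0.000622) without that library. BAT had the highest Nrp1 of all tissues, and the brown adipocyte markers moved with the same 5 aorta libraries; their part in the result was not tested.

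Nrp2, the co-receptor linked to veins and lymphatics, was at 3.68 FPKM in aorta estrus replicate 1, at 15.51 to 23.19 FPKM in the other aorta libraries and at 15.83 to 25.93 FPKM in the vein. Without the first, the vessels differed by 0.02 (SE 0.09, limma adjusted p = 0.902). Aplnr, the apelin receptor of veins and sprouting capillaries, spread from 4.08 to 26.49 FPKM in the aorta and from 12.00 to 28.85 FPKM in the vein. Its difference of -0.58 (SE 0.30, limma adjusted p = 0.187) was within that spread, and it was -0.36 (SE 0.24, limma adjusted p = 0.233) without aorta estrus replicate 1.

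No member separated all 6 aorta libraries from all 6 vein libraries, as 14.6% of genes did. Without aorta estrus replicate 1, Hey2, Nr2f2 and Nrp1 did, and 28.9% of genes did.

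**Figure D2:**
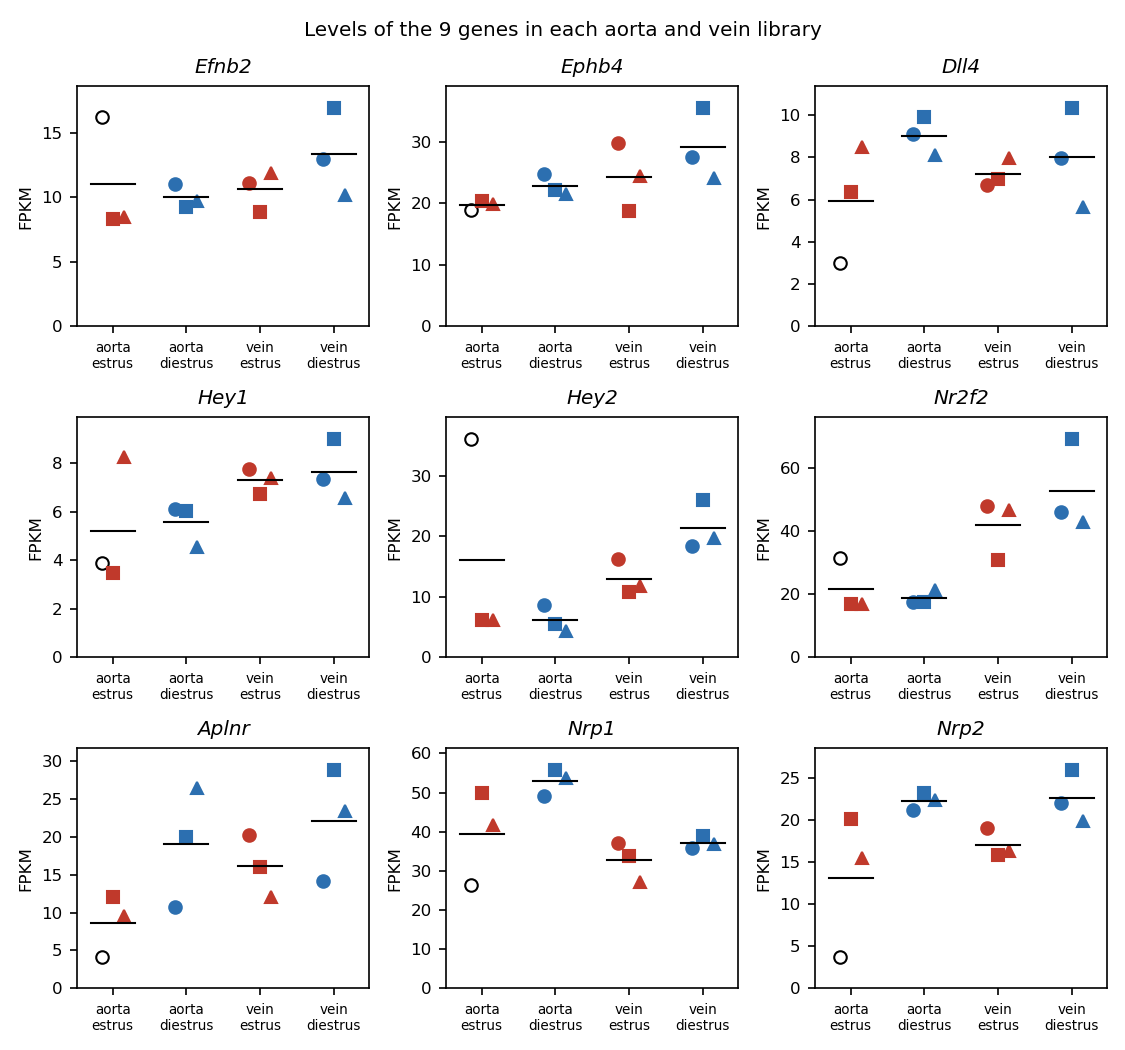
FPKM of the 9 genes in each aorta and vein library by phase (red estrus, blue diestrus; circles, squares and triangles are replicates 1, 2 and 3), with lines at the mean of 3 and aorta estrus replicate 1 as an open circle. That library is the highest of the 6 aorta libraries for Hey2 (36.11 FPKM) and the lowest for Nrp2 (3.68 FPKM), and Nr2f2 is higher in the vein than in the other 5 aorta libraries.

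The endothelial markers were themselves lower in the aorta, with 6 of 13 called (Pecam1 by -0.76, Cldn5 by -0.69 and Emcn by -0.56) and a median of -0.37. The members were therefore also compared after the mean log2 level of the 13 markers was subtracted in each library, a scaling that moved the median of all genes to 0.26. Nr2f2 was still lower in the aorta (-0.81, SE 0.21, limma adjusted p = 0.0123), and Nrp1 was called higher (0.73, SE 0.14, limma adjusted p = 0.00207), where 30.2% of genes were called, 9.57% as lower and 20.7% as higher. Without aorta estrus replicate 1, Hey2 was lower (-1.04, SE 0.17, limma adjusted p = 0.000289), and Dll4 (0.43, SE 0.14, limma adjusted p = 0.0229) and Nrp2 (0.32, SE 0.10, limma adjusted p = 0.0183) were higher, where 15.6% and 28.5% of genes were called in these directions. On that scale Efnb2 and Ephb4 differed by -0.02 (SE 0.10) and 0.02 (SE 0.08), below the median of all genes.

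**Figure D3:**
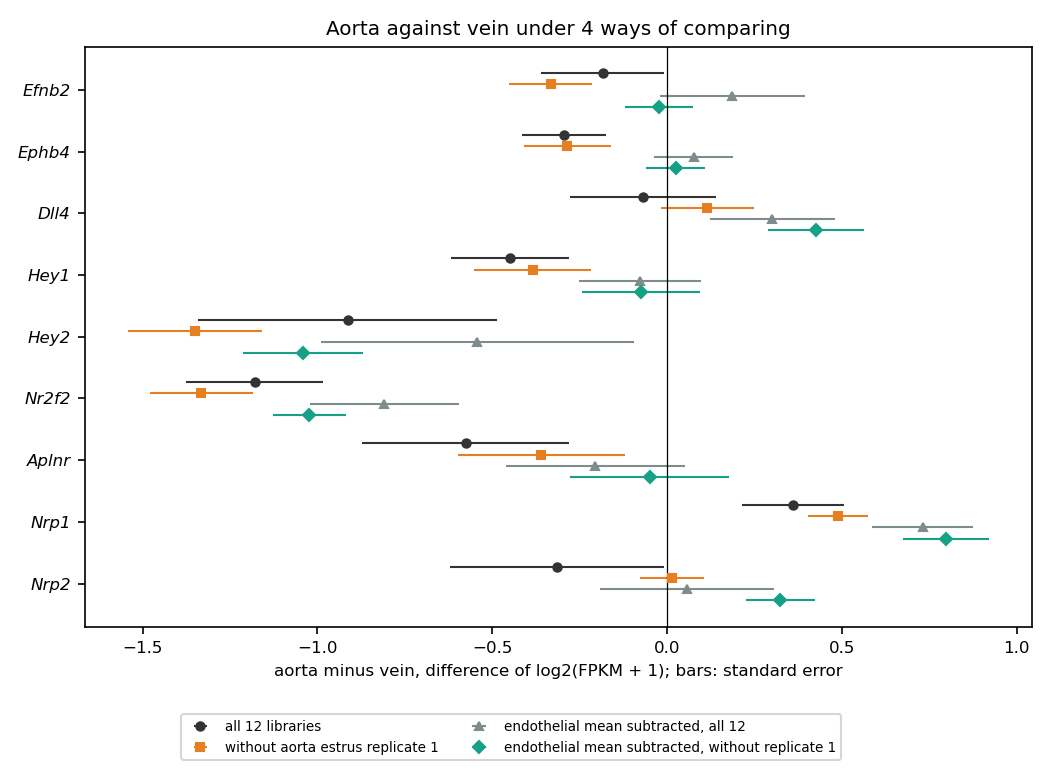
Aorta minus vein on the log2(FPKM + 1) scale for the 9 genes, with standard errors, under 4 ways of comparing. Nr2f2 and Hey2 lie below 0 and Nrp1 above 0 under each of them, while Efnb2, Ephb4, Dll4 and Nrp2 change sign.

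Other genes of the same pathways were counted with the 9 members left out. Of 70 listed genes of the Notch, ephrin, VEGF and semaphorin, apelin and COUP-TF pathways, 59 were tested, 21 were called lower and 2 higher in the aorta, or 35.6% and 3.39%, where 21.1% and 5.66% of all genes were. With the endothelial mean subtracted, 9 were called lower and 9 higher, where 9.57% of all genes were lower and 20.7% higher. Among Notch genes, 11 of 24 tested were called lower and 0 higher, with a median of -0.29. The largest differences were those of Dtx1, a ubiquitin ligase of the pathway (-1.77, SE 0.20, limma adjusted p = 3.06e-05), Mfng (-1.13, SE 0.29) and Psen2, a subunit of gamma-secretase (-1.04, SE 0.10, limma adjusted p = 1.28e-05). Lfng followed (-0.97, SE 0.20), which like Mfng is a glycosyltransferase that modifies Notch receptors.

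Of the ephrins and their receptors, 5 of 13 tested were called lower and 1 higher, where 21.1% of all genes were lower and 5.66% higher. The largest differences were those of Epha5 (-1.66, SE 0.17) and Ephb6 (-1.46, SE 0.21), Efnb3 was lower by -0.68 (SE 0.14), and Epha4 was higher by 0.91 (SE 0.22, limma adjusted p = 0.00828). In the VEGF and semaphorin list, 4 of 19 were called lower and 0 higher, so the lower calls were near the share of all genes. They were the semaphorin receptors Plxna3 (-1.56, SE 0.18) and Plxna4 (-1.45, SE 0.22), the ligand Sema3b (-1.11, SE 0.29) and the lymphatic growth factor Vegfd (-0.71, SE 0.16). Plxna3, Plxna4, Epha5 and Ephb6 are also known from neurons, and the neuronal markers were higher in all vein libraries; their part in these results was not tested. The apelin ligand Apln differed by 0.57 (SE 0.25, limma adjusted p = 0.123).

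Without aorta estrus replicate 1, 28 of 57 pathway genes tested were called lower and 6 higher in the aorta, or 49.1% and 10.5%, where 35.6% and 16% of all genes were. Those lower in the ephrin list rose in number from 5 to 8, and the VEGF and semaphorin list had 6 lower and 3 higher. The growth factors Vegfa (0.72, SE 0.13, limma adjusted p = 0.000690) and Vegfb (0.88, SE 0.13, limma adjusted p = 0.000190) and the ligand Apln (0.75, SE 0.20, limma adjusted p = 0.00842) were called higher in the aorta without that library. With it, Vegfa differed by 0.40 (SE 0.32, limma adjusted p = 0.407) and Vegfb by 0.55 (SE 0.32, limma adjusted p = 0.256).

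Other genes known from arteries or veins were counted in the same way. Of 16 other arterial genes, 6 were called lower and 1 higher in the aorta, and of 12 other venous genes tested, 5 were called lower and 0 higher, where 21.1% of all genes were lower and 5.66% higher. The venous list shares Emcn and Tek with the endothelial markers and Flt4 with the lymphatic genes, so these lists are not independent. With the endothelial mean subtracted, 2 arterial genes were lower and 2 higher, and 4 venous genes were lower and 0 higher, where 9.57% of all genes were lower and 20.7% higher. Without aorta estrus replicate 1 also, the arterial list had 4 lower and 3 higher, and the venous list 4 lower and 2 higher. In that setting 15.6% of all genes were lower and 28.5% higher. Ackr1, the chemokine receptor of venules (-1.78, SE 0.17, limma adjusted p = 8.62e-06), and Vwf, the clotting factor carrier of endothelium (-1.36, SE 0.19, limma adjusted p = 0.000175), were lower in the aorta. They were at 2.59 to 7.78 FPKM and 16.38 to 31.14 FPKM in the aorta and at 10.72 to 22.69 FPKM and 45.8 to 92 FPKM in the vein, with no overlap. The venous list also held Ptgs1 (-0.94, SE 0.16) and Selp (-0.88, SE 0.16). In the arterial list, Gkn3 (-1.48, SE 0.33, limma adjusted p = 0.00610) and Bmx (-0.87, SE 0.21) were lower in the aorta, and Alpl was higher (0.72, SE 0.16). Stmn2, from the same list and also a neuronal gene, was at 3.43 to 8.49 FPKM in the aorta and 150 to 324 FPKM in the vein. Of the 7 lymphatic genes, 4 were called lower in the aorta, among them Reln (-1.55, SE 0.21), Mmrn1 (-1.26, SE 0.24) and Ccl21a (-1.90, SE 0.64), whose near-identical copies can share its reads. Ccl21a was at 261.93 FPKM in aorta diestrus replicate 3 and at 12.14 to 27.95 FPKM in the other aorta libraries. In the vein it was at 59.63 to 265.68 FPKM, with the highest value in estrus replicate 3.

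Against the mean of the 13 other tissues, in a fit of all 90 libraries, 8 of 9 members were called higher in the aorta, where 31.6% of 15226 genes were higher and 31% lower. In the vein 9 of 9 were called higher, where 41.7% of genes were higher and 18.8% lower. Both comparisons use the same 13 tissues. Hey2 was higher by 1.84 (SE 0.16, limma adjusted p = 7.37e-16) in the aorta and 2.75 (SE 0.16, limma adjusted p = 6.64e-24) in the vein, and in the aorta by 1.45 (SE 0.14) without estrus replicate 1. Aplnr was higher by 1.61 (SE 0.18) and 2.19 (SE 0.18), and Nrp1 by 1.7 (SE 0.13) and 1.34 (SE 0.13). Nr2f2 was higher in the vein by 1.37 (SE 0.13, limma adjusted p = 2.23e-14) and differed in the aorta by 0.19 (SE 0.13, limma adjusted p = 0.214). Efnb2 was higher by 0.36 in the aorta (SE 0.12, limma adjusted p = 0.00805) and by 0.55 in the vein (SE 0.12, limma adjusted p = 8.99e-05), but in the aorta not without estrus replicate 1 (0.22, limma adjusted p = 0.138). Hey1 was higher by 0.42 in the aorta (SE 0.16, limma adjusted p = 0.0227), and this call was lost without aorta estrus replicate 3 (limma adjusted p = 0.219), diestrus replicate 1 (limma adjusted p = 0.0649) or diestrus replicate 2 (limma adjusted p = 0.0618).

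Across the 15 tissues, the members did not share an order. The levels below are the lowest, median and highest FPKM of the 6 libraries of a tissue, and tissues next to each other in the order of a member were compared by an exact two-sided permutation test on log2(FPKM + 1), 6 libraries against 6, with adjustment over the 126 pairs of neighbours. Of these, 17 differed, so most steps in the orders are within the spread of the libraries. For Nrp2 0 of 14 neighbours differed, with 1 of 14 at an unadjusted exact permutation p under 0.05, and for Hey1, with the most, 4 of 14.

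Efnb2 was highest in the uterus, at 27.21, 48.4 and 95.23 FPKM, above the duodenum at 12.87, 17.975 and 23.12 FPKM (1.49 on the log2 scale, exact permutation adjusted p = 0.0210). The cerebrum, vein, stomach and aorta followed without a step that differed. At the low end, Efnb2 fell from the kidney (median 5.64 FPKM) to muscle (2.43 FPKM) and to the liver (0.66 FPKM), and both steps differed (exact permutation adjusted p = 0.0210). The order of Ephb4 was another, with the vein (median 25.995 FPKM), heart (22.4 FPKM), aorta (21.0 FPKM) and uterus (21.8 FPKM) at the top by mean log2 level, and the hypothalamus (1.81 FPKM) and cerebrum (1.44 FPKM) at the bottom. Ephb4 exceeded Efnb2 in all 6 libraries of 9 tissues, the aorta and vein among them. Efnb2 exceeded Ephb4 in all 6 libraries of the spleen, stomach, cerebrum, hypothalamus and uterus, and the duodenum was mixed.

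Dll4 was highest in WAT (8.96, 10.2 and 14.03 FPKM) and heart (9.08, 9.96 and 11.76 FPKM) and lowest in the hypothalamus, with a median of 0.565 FPKM. Between WAT and spleen no step differed. Hey1 had a different top, the cerebrum at 16.72, 20.3 and 22.71 FPKM and the hypothalamus at 14.30, 15.2 and 16.66 FPKM, and each was above the next tissue (exact permutation adjusted p = 0.0210). The heart followed at a median of 9.11 FPKM and the liver was last at 0.31 FPKM. Hey2 was highest in the ovary (16.92, 25.3 and 28.50 FPKM) and vein (10.84, 17.3 and 25.93 FPKM), then in the aorta (median 6.17 FPKM) and hypothalamus (4.22 FPKM), and the step between the last pair differed (exact permutation adjusted p = 0.0481). WAT, which shared the top for Dll4, had 0.565 FPKM of Hey2 as its median.

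Nr2f2 was highest in the ovary (57.91, 65.3 and 82.34 FPKM) and uterus (39.92, 51.0 and 92.95 FPKM), followed by the vein, stomach and kidney without a step that differed. The kidney (median 41.3 FPKM) was above the hypothalamus (24.5 FPKM; exact permutation adjusted p = 0.0210), and the aorta came at rank 7 with 17.5 FPKM. Heart, whose endothelial markers were at the level of the aorta, had 6.06 FPKM of Nr2f2. Aplnr was highest in heart, vein, WAT, ovary and aorta, with medians of 11.4 to 20.2 FPKM, and was at 0.07 to 0.14 FPKM in the cerebrum and at 0 to 0.05 FPKM in the liver.

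Nrp1 was highest in BAT (38.25, 54.1 and 65.76 FPKM), aorta, WAT, vein and heart, and the heart (median 32.2 FPKM) was above the ovary (18.3 FPKM; exact permutation adjusted p = 0.0210). Nrp2 was highest in the vein, BAT and aorta, with medians of 19.4, 17.0 and 20.6 FPKM. Nrp1 exceeded Nrp2 in all 6 libraries of 10 tissues, and Nrp2 exceeded Nrp1 in all 6 of the hypothalamus alone.

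**Figure D4:**
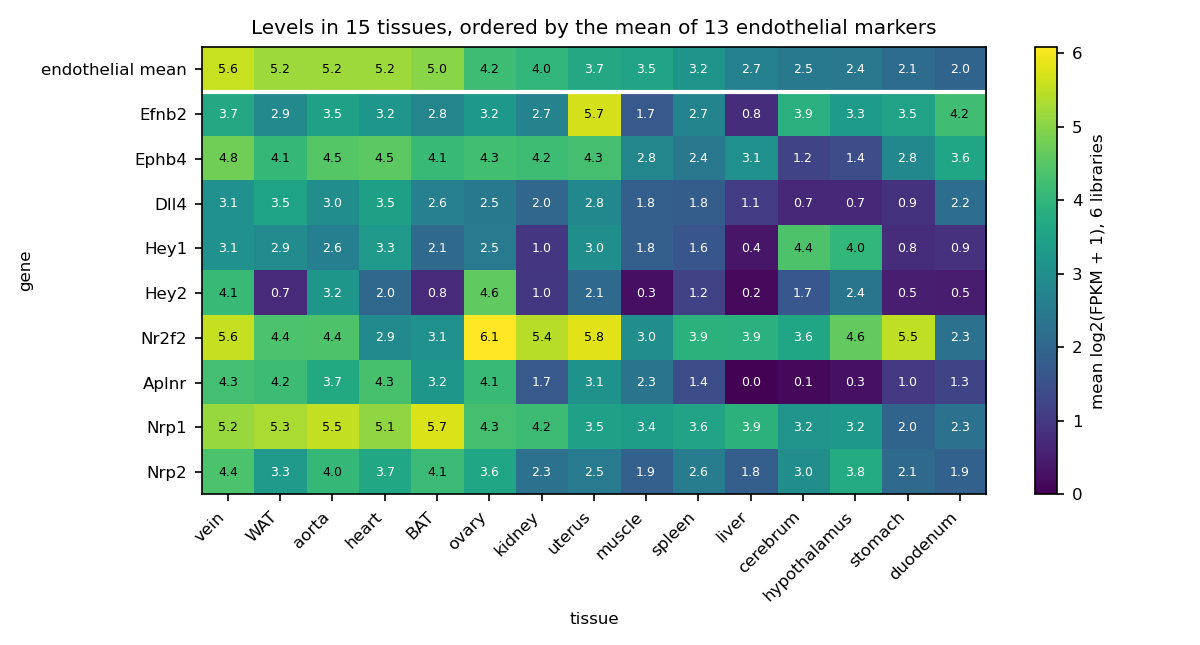
Mean log2(FPKM + 1) of the 6 libraries of each tissue for the 9 genes, under the mean of 13 endothelial markers, by which the tissues are ordered from vein to duodenum. Nrp1, Aplnr and Dll4 fall from left to right with the endothelial row, while Efnb2 peaks in the uterus, Hey1 in the cerebrum and Hey2 and Nr2f2 in the ovary.

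The members differed in how closely they followed the endothelial markers. Over the 15 tissue means, Pearson's r with the mean log2 level of the 13 markers was 0.93 for Nrp1, 0.90 for Aplnr, 0.85 for Dll4, 0.76 for Ephb4 and 0.70 for Nrp2. Spearman's rho was 0.91, 0.88, 0.85, 0.76 and 0.64 in that order. For Hey2, Hey1, Nr2f2 and Efnb2, r was 0.45, 0.29, 0.14 and -0.01. Without the vein and duodenum, the tissues farthest from the median of the markers, r was 0.94 for Dll4 and -0.20 for Nr2f2. These values are descriptions over 15 points, whose compared genes come from the same libraries.

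The 3 genes with the tissue pattern most like each member were taken by Pearson's r of mean log2 levels over 15 tissues, among 15226 genes. Most of them depend on that measure. By Spearman's rho, none of the 3 was the same for Efnb2, Hey1 and Hey2, 1 of 3 was for Dll4, Nr2f2, Aplnr and Nrp2, 2 of 3 were for Ephb4, and all 3 for Nrp1. By Pearson's r the closest were Gdpd5 (0.91), Ets2 (0.90) and Ctnnb1 (0.87) for Efnb2. For Ephb4 they were Tgm2 (0.95), Rbpms (0.94) and Cd151 (0.90). Dll4 was most like Aplnr (0.93), another member, then Rbms2 (0.91) and Cd93 (0.91). Aplnr was most like Cd93 (0.98), Hspg2 (0.97) and Bcl6b (0.96). Among the genes closest to Hey1 were Pcdhb17 (0.94) and Prrg3 (0.93), and those closest to Hey2 were Layn (0.93), Reck (0.93) and Dpysl3 (0.92). Nr2f2 had Cnn3 (0.89), Cdh3 (0.87) and Ptpn13 (0.86), Nrp1 had Ccm2l (0.95), Mcat (0.95) and G0s2 (0.94), and Nrp2 had Kcnk3 (0.91), Kif26a (0.90) and Spring1 (0.89).

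The study's own contrast was estrus against diestrus within each tissue. Of the 135 pairs of a member and a tissue, 117 passed the filter, and 0 had both an adjusted p within 0.05 and a change of 1 or more on the log2 scale, where 0.00108% of all gene and tissue pairs were. At an unadjusted limma p under 0.05 there were 13 pairs, or 11.1%, against 7.84% of all pairs. The values of the phases did not overlap in 23 pairs, 19 lower and 4 higher in estrus, or 16.2% and 3.42%, where 9.31% and 5.66% of all pairs were. Estrus had the higher mean in 44 pairs, or 37.6%, against 46.5% of all pairs. An exact permutation test of 3 against 3 cannot give a p below 0.1. In one fit of all 90 libraries, where the spread is shared among tissues, 4 of the 135 pairs passed both limits, where 1.14% of all pairs did: Ephb4 in the duodenum, Dll4 and Hey1 in BAT and Aplnr in the uterus, all lower in estrus.

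In muscle 8 members were tested and all had lower means in estrus, where the median of all genes was -0.08. Ephb4 was at 5.42, 4.93 and 4.25 FPKM in estrus and 6.75, 8.06 and 7.23 FPKM in diestrus (-0.51, SE 0.10, limma adjusted p = 0.0940), and Hey1 at 2.40, 1.84 and 1.62 FPKM and 3.19, 3.20 and 3.67 FPKM (-0.57, SE 0.12, limma adjusted p = 0.0974). Aplnr was at 1.95, 3.83 and 3.14 FPKM in estrus and 5.55, 6.02 and 5.30 FPKM in diestrus (-0.77, SE 0.18, limma adjusted p = 0.103). The estrus values of these 3 genes, and of Nrp2, were all below the diestrus values, as were 26.2% of muscle genes in either direction. The mean of the endothelial markers was also lower in estrus, by -0.34 without overlap, and its part in these differences was not tested.

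Ephb4 in the duodenum had the largest phase difference outside BAT. It was at 5.45, 2.64 and 12.73 FPKM in estrus and at 22.12, 19.04 and 18.07 FPKM in diestrus. The estrus libraries were all lower and varied more. The difference was -1.59 (SE 0.45, limma adjusted p = 0.368 over the 12410 genes of the duodenum), and the adjusted p was 6.43e-06 by limma in the fit of all 90 libraries. Efnb2 in the duodenum was at 14.47, 12.87 and 15.03 FPKM in estrus and 20.92, 21.15 and 23.12 FPKM in diestrus (-0.59, SE 0.14, limma adjusted p = 0.368). With Aplnr (-0.46), 3 of 7 members tested in the duodenum did not overlap, where 26.6% of its genes did not, and the endothelial markers were lower in estrus by -0.47, which was not tested as a part of either difference.

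In the vein, 9 of 9 members had lower means in estrus. Hey2 was at 16.21, 10.84 and 11.80 FPKM in estrus and 18.41, 25.93 and 19.72 FPKM in diestrus (-0.68, SE 0.19, limma adjusted p = 0.412), and Nrp2 differed by -0.38 (SE 0.13, limma adjusted p = 0.412), each without overlap, as 18.2% of genes in the vein. The median of all vein genes was -0.10. In the aorta, Ephb4 (-0.20) and Nrp2 (-0.98) did not overlap, nor did 11.9% of aorta genes, with limma adjusted p = 0.933 for each, and the largest part of the Nrp2 difference came from replicate 1, since it was -0.31 without it. The endothelial markers were lower in estrus by -0.46 in the aorta, without overlap, and by -0.30 in the vein. The phase differences of the aorta and vein were also compared with each other, and 0 of 9 members were called, 0 had an unadjusted limma p under 0.05, and 0% of all genes were called. The largest such difference was 1.52 for Hey2 (SE 0.76, limma adjusted p = 0.696), and 0.73 (SE 0.33, limma adjusted p = 0.905) without aorta estrus replicate 1.

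Dll4 and Hey1 in BAT were at 0 FPKM in estrus replicate 3, the shallow library. Dll4 was at 4.67 and 6.91 FPKM in the other estrus libraries and at 7.86, 11.27 and 11.53 FPKM in diestrus, and without the shallow library the difference fell from -1.64 to -0.73. Hey1 was at 2.46 and 3.50 FPKM and at 5.62, 5.34 and 8.77 FPKM, and differed by -0.91 without that library. Nrp2 in BAT went the other way, at 24.66, 20.56 and 19.51 FPKM in estrus and 11.90, 14.46 and 12.73 FPKM in diestrus (0.68, SE 0.16, limma adjusted p = 0.208). In BAT 5 of 8 members tested did not overlap, where 30.1% of genes did not. The endothelial markers were lower in estrus by -0.65 in BAT, without overlap, and their part in these differences was not tested.

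Aplnr in the uterus was at 6.27, 6.62 and 1.5 FPKM in estrus and 9.64, 6.78 and 32.46 FPKM in diestrus (-1.44, SE 0.66, limma adjusted p = 0.897), and 7.91% of uterus genes did not overlap. The endothelial markers summed to 165, 229 and 80.2 FPKM in the same estrus libraries and to 229, 181 and 409 FPKM in the diestrus libraries, with the extremes in the libraries that held the least and the most Aplnr. In the hypothalamus, Nrp2 was at 11.01, 11.47 and 11.07 FPKM in estrus and at 13.90, 13.47 and 14.44 FPKM in diestrus (-0.29, SE 0.05, limma adjusted p = 0.226). With Hey2 (-0.14), 2 of 7 members tested in the hypothalamus did not overlap, where 19.6% of its genes did not. Endothelial markers of the hypothalamus were higher in estrus by 0.13, without overlap.

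The other 3 pairs that were higher in estrus without overlap were in WAT, stomach and cerebrum. Nr2f2 in WAT was at 34.83, 18.03 and 21.20 FPKM in estrus and 17.70, 13.29 and 16.99 FPKM in diestrus (0.55), where 12% of genes did not overlap. Efnb2 in the stomach was at 11.93, 9.91 and 14.98 FPKM in estrus and 9.22, 8.60 and 8.97 FPKM in diestrus (0.40), where 13.7% of genes did not overlap. Estrus was the more variable phase in both. Nrp2 in the cerebrum was at 8.64, 6.02 and 14.28 FPKM in estrus and 4.37, 5.94 and 5.96 FPKM in diestrus (0.67), where 7.8% of genes did not overlap. In the ovary, Aplnr (-0.23) was the 1 of 9 members without overlap, where 13.7% of genes were. Endothelial markers of the ovary were lower in estrus by -0.30, without overlap, and their part in the Aplnr difference was not tested. In the heart, kidney, liver and spleen the phases overlapped for each of the 9, 7, 5 and 9 members tested, where 11.7%, 7.98%, 11.3% and 8.78% of genes did not overlap.

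**Figure D5:**
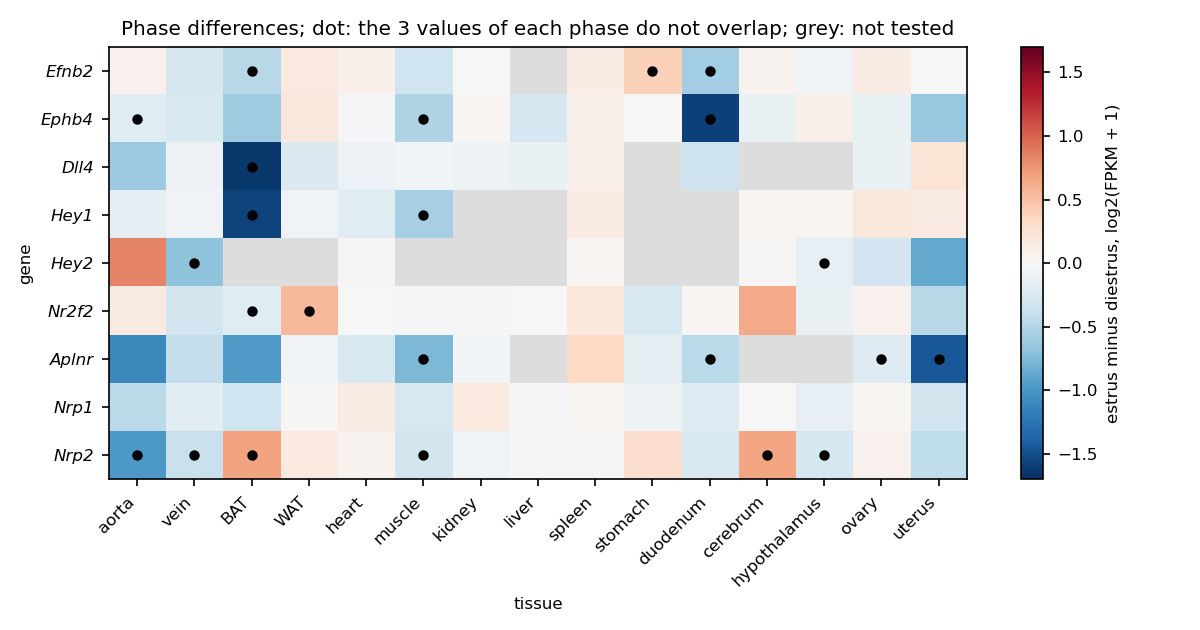
Estrus minus diestrus in log2(FPKM + 1) for each gene (rows) and tissue (columns); blue is lower in estrus, a dot marks phases whose 3 values each do not overlap, and grey was not tested. Of the 23 dots, 19 lie on blue, and the strongest blue is Dll4 and Hey1 in BAT, which hold the shallow library, and Ephb4 in the duodenum.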

How the data were processed

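RNA from 15 tissues of female mice in estrus and diestrus was sequenced on a BGISEQ-500, with 3 libraries per tissue and phase. The authors filtered the reads, aligned them with Bowtie2 2.2.5, estimated abundance with RSEM 1.2.8 (both as listed in the submitters' processing notes, with GRCm38.p5) and deposited FPKM for 20414 genes. The unit is not written in the file and was taken from the study's methods and the values. The labels give C57BL/6 mice of 10 weeks, while the study's methods write C57BL/6J and another age. According to those methods, 3 mice per phase gave the samples, so tissues share mice, but the labels do not tie libraries to a mouse.

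Symbols were matched by Entrez identifier to the RefSeq table of GRCm38.p6, and 20265 of them had one. Reads per library were approximated from FPKM steps of 1474 short genes, and since 65.8% to 85% of their values were whole reads within 0.2, counts were not used. Differences in log2(FPKM + 1) were tested with limma (version 3.58.1, R version 4.3.3), letting the prior variance follow the mean level, for genes averaging 1 FPKM or more in the libraries fitted. Aorta and vein were fitted on 12 libraries with phase as a covariate, each vessel against the other tissues on 90 libraries with 30 groups, and phases within each tissue on 6. For the phases a log2 fold change of at least 1 was also required. Permutation tests, correlations and motif searches used Python 3.11.15 with scipy 1.17.1, numpy 2.4.6 and pandas 2.3.3, and figures used matplotlib 3.10.9. The fits were tested on simulated data. Named genes were the 9 members, up to 4 called genes of each list with the largest fold change, and the 3 genes most like each member, of which 1 is not reported here. The members and lists were chosen with earlier results of these data known, and the list of peripheral neurons was added after the values were seen. Nr2f2 is also among the transcription factors the study names from these libraries.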

Additional observations from a re-analysis of the deposited data

Results flagged for a closer look

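In 16 of 135 groups of 6 libraries, the highest library lay far from the other 5 by Dixon's 95% limit. For normally distributed values, chance flags about 1 in 20 such groups, or 6.75 here. The limit was applied to FPKM of both phases together, so the number flagged does not measure an excess over chance. Of the 16, 3 came from aorta estrus replicate 1. That library held 36.11 FPKM of Hey2, where the others held 4.37 to 8.62, 31.49 FPKM of Nr2f2, where the others held 16.87 to 21.18, and 16.24 FPKM of Efnb2, where the others held 8.33 to 11.07. Spleen estrus replicate 2 stood apart for Efnb2 (7.22 FPKM), Dll4 (3.18 FPKM) and Nrp1 (12.74 FPKM). WAT estrus replicate 1 held 34.83 FPKM of Nr2f2 and 1.99 FPKM of Hey2, where the others held at most 21.2 and 0.73.

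In the uterus, diestrus replicate 3 held 32.46 FPKM of Aplnr and 10.42 FPKM of Hey2, where the others reached 9.64 and 3.34, and estrus replicate 1 held 13.24 FPKM of Dll4. Cerebrum estrus replicate 3 held 27.73 FPKM of Nr2f2, where the others held 7 to 10.19. The remaining values were 13.72 FPKM of Efnb2 in ovary estrus replicate 3, 0.87 FPKM of Dll4 in hypothalamus estrus replicate 1, 4.13 FPKM of Nrp2 in liver estrus replicate 2 and 8.48 FPKM of Nrp2 in stomach estrus replicate 1.

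For 3 members, the phases did not overlap in opposite directions in a pair of tissues. These pairs were picked for that separation, so the differences of their phase effects, on the log2 scale, are given without a test. For Nrp2, BAT minus aorta came to 1.66 and cerebrum minus aorta to 1.64. Without aorta estrus replicate 1, a setting chosen after seeing the data, they were 1.00 and 0.98, and without BAT estrus replicate 3 the first was 1.73. BAT exceeded the vein by 1.07, muscle by 1.00 and the hypothalamus by 0.98, and the cerebrum exceeded them by 1.05, 0.98 and 0.96. For Efnb2, stomach minus BAT was 0.87 and stomach minus duodenum 0.99, and for Nr2f2, WAT minus BAT was 0.75.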

How the results depend on the processing

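Of the 9 members, 1 was called between aorta and vein, where 26.8% of all genes were. Leaving out 1 library at a time gave 1 to 4 calls. The 4 came without aorta estrus replicate 1, where 51.6% of all genes were called, and 2 each came without aorta estrus replicate 3 and vein estrus replicate 2. Subtraction of the endothelial mean gave 2, where 30.2% of all genes were called. Upper quartile rescaling gave 2 calls, one fit of all 90 libraries 2, diestrus libraries alone 3 and estrus libraries alone 0. Subtraction of the endothelial mean without aorta estrus replicate 1, chosen after seeing the data, gave 5, where 15.6% of all genes were lower and 28.5% higher. Counts in this section without a share of all genes beside them do not set the members or pathway genes apart from other genes. Of the other pathway genes 23 were called, 21 lower and 2 higher, with 21 to 34 on leaving out 1 library. A filter of 5 FPKM gave 14, a log2 fold change of 1 as well 8, and estrus libraries alone 5. With the endothelial mean subtracted, 9 were lower and 9 higher, where 9.57% and 20.7% of all genes were. Without aorta estrus replicate 1 also, 14 were lower and 11 higher, where 15.6% and 28.5% of all genes were.

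The sign of some members turned. With the endothelial mean subtracted, aorta minus vein was 0.19 for Efnb2, 0.076 for Ephb4, 0.30 for Dll4 and 0.057 for Nrp2, and without aorta estrus replicate 1 also it was 0.025 for Ephb4, 0.43 for Dll4 and 0.32 for Nrp2. Dll4 was at 0.035 under upper quartile rescaling and 0.19 in diestrus alone, and ranged from -0.19 to 0.12 on leaving out 1 library, where Nrp2 ranged from -0.47 to 0.015. Aside from the subtraction, which centres on the endothelial markers, and the smaller sets of libraries, the cause was not tested.

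Against the 13 other tissues, 6 members were called for the aorta and 7 for the vein at a filter of 5 FPKM, under which fewer genes were tested. Of the phase pairs, 4 were called in one fit of 90 libraries and 0 under every other alternative. Of 126 pairs of neighbouring tissues, 17 differed, 0 to 19 did on leaving out libraries (19 without aorta estrus replicate 1, chosen after seeing the data), and 0 did with the replicate block. The zeros come from designs whose smallest permutation p cannot pass adjustment, and say nothing about stability.

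Replicate numbers are shared by the groups, but the labels do not tie them to a mouse. Only 4 of 6 pairs between aorta and vein, each within a phase, correlated above 0.1. The study assigned 3 mice to each phase, so the same number in estrus and diestrus stands for different mice. Between phases 13 of 45 such pairs were above 0.1, which cannot show a pairing. With the replicate block, 1 member and 23 pathway genes were called between aorta and vein, and 8 and 9 members against the other tissues. Between phases 0 were called, but there the block joins different mice and says nothing about stability. Depth limits the values of BAT estrus replicate 3, where a gene at 0 may be unsampled, and 3 libraries per group limit the phase contrast.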
